A study of Mus musculus with 8 samples.

Results

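The 10 genes described here mark the endothelial cells of mouse liver, in 8 RNA sequencing libraries of tumor and normal liver. They were taken by symbol from the 21878 genes of the deposited table: 6 mark sinusoidal endothelium (Stab1, Stab2, Lyve1, Clec4g, Fcgr2b and Oit3), 1 marks capillary endothelium (Plvap), and 3 mark endothelial cells in general (Pecam1, Kdr and Cdh5). The 8 libraries were 2 KO tumors (numbers 2 and 3), 3 WT tumors (1, 2 and 3), 1 KO normal liver (3) and 2 WT normal livers (2 and 3). KO is the nfib-/- genotype of the labels, in mice with floxed Nfib and Alb-Cre, and WT is wild type. Alb-Cre acts in hepatocytes, so endothelial cells were not its target. All mice were C57BL/6, and the labels give an age of 14 to 16 days for tumor and normal liver alike. The labels do not say whether libraries of 1 group came from separate animals, or whether equal numbers came from 1 animal, so p-values measure only the spread between these libraries. The title of the series concerns hepatocellular tumors and the urea cycle, and names no endothelial question.

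Liver sinusoids are lined by a thin endothelium with open pores and no continuous basement membrane. Its cells take up waste from the blood through scavenger receptors and lectins, and their identity depends on the transcription factor Gata4. In chronic liver disease and in many liver tumors sinusoidal endothelium can lose these genes and gain those of ordinary capillaries, such as Plvap, Cd34 and basement membrane collagens, a change known as capillarization. General endothelial genes such as Cdh5 and Pecam1 are expressed by both kinds of vessel, so the ratio of sinusoidal to general genes within 1 library does not scale with the amount of endothelium as a single gene's level does. In bulk samples, fewer cells of a type and less RNA per cell cannot be told apart.

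The 10 members lie on 7 chromosomes of GRCm38. Windows before the RefSeq transcription start were given for 5 members: Stab1, Stab2, Clec4g, Fcgr2b and Kdr. The 250 bases before the start are printed for the sinusoidal gene that differed most between libraries (Clec4g), for a second such gene (Stab2), for the sinusoidal gene that differed least (Stab1), and for Kdr, a general marker that followed them. They are written 5′ to 3′ on the strand of each gene, which is the minus strand in all 4. Capitals mark matches on either strand to short motifs. For GATA factors the letters were AGATAA with its variant AGATAG, and TGATAA with its variant TGATAG. For ETS factors the letters were AGGAAG with its variant CGGAAG.
Clec4g: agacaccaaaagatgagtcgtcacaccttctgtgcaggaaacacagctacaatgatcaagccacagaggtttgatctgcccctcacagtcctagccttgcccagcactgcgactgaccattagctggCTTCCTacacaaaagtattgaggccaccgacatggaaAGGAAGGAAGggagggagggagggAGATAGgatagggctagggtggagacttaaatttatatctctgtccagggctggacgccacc
Stab2: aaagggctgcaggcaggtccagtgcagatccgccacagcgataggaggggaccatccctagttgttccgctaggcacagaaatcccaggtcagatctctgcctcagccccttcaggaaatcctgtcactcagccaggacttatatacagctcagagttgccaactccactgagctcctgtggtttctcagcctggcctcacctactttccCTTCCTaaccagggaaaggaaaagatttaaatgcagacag
Stab1: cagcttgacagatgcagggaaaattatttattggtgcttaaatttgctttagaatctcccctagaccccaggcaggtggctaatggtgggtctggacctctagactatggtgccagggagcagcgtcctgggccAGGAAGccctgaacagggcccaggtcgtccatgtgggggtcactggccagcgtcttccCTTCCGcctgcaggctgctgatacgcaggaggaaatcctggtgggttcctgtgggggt
Kdr: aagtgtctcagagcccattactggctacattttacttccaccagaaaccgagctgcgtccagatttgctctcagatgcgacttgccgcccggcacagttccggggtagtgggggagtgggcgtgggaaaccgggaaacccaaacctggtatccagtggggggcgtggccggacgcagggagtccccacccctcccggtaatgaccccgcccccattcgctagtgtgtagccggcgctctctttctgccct
The windows are chr8:3720652-3720901 for Clec4g, chr10:87007943-87008192 for Stab2, chr14:31168642-31168891 for Stab1 and chr5:75978456-75978705 for Kdr, in GRCm38. Clec4g held 1 GATA match and 3 ETS matches, of which 2 overlap each other. Stab1 held 2 ETS matches and Stab2 held 1, and neither held a GATA match. Kdr and Fcgr2b held neither motif. Of 32851 RefSeq windows of the same length, 26.5% held a GATA match and 39.2% an ETS match, so these matches are common and describe the letters only.

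Library totals ran from 11912549 to 19965842 counts. All 10 members passed the expression filter, and each was detected in every library, with the lowest count at 78 for Lyve1 in WT tumor 2. Alb, the main hepatocyte transcript, took 5.05% to 14.1% of counts. Nfib had 88.0 and 78.3 CPM (counts scaled to the library total) in KO tumors 2 and 3, 61.4, 41.5 and 82.1 CPM in WT tumors 1, 2 and 3, 82.0 CPM in KO normal 3, and 104 and 77.7 CPM in WT normal 2 and 3. Its mean level was therefore not lower in the libraries labelled KO, and KO over WT gave 0.27 ± 0.19 (SE) on the log2 scale, at an edgeR adjusted p of 0.748, and every direction given for KO below rests on the labels. Some libraries also carried RNA of other tissues. The summed level of 7 muscle genes was 1626 CPM in KO tumor 2 and 535 CPM in KO normal 3, against 1.38 to 76.6 CPM in the other libraries. A list of 5 squamous epithelial genes summed to 471 CPM in KO tumor 2, against 0.0573 to 3.18 CPM elsewhere. The Y-linked Ddx3y had 5.31 CPM in WT tumor 2 and 59.9 CPM in WT normal 2, against at most 0.118 CPM in the other 6 libraries. Its level thus differed between the 2 wild-type libraries that carry number 2.

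Per length, the sinusoidal lectin Clec4g and the receptor Fcgr2b had the highest levels of the 10 genes, by the deposited FPKM values. Clec4g had a median of 74.4 FPKM over the 8 libraries, with a range of 5.11 to 121 FPKM. Fcgr2b had a median of 54.1 FPKM, from 11.8 to 98.9 FPKM. Plvap followed with a median of 23.4 FPKM, from 13.3 to 32.5 FPKM. The next 5 medians were close together, at 17.6 FPKM for Oit3, 16.7 FPKM for Stab1, 11.9 FPKM for Stab2, 11.8 FPKM for Kdr and 11.5 FPKM for Cdh5. Lyve1 and Pecam1 were lowest, with medians of 8.81 and 8.57 FPKM. The ranges of all neighbours in this order overlapped. The order of spread was different. The highest library exceeded the lowest 23.8-fold for Clec4g, 13.4-fold for Oit3, 11.8-fold for Stab2, 8.39-fold for Fcgr2b and 8.36-fold for Lyve1, but 3.66-fold for Stab1. It was 5.66-fold for Kdr, 2.45-fold for Plvap, 2.22-fold for Pecam1 and 1.89-fold for Cdh5.

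**Figure D1:**
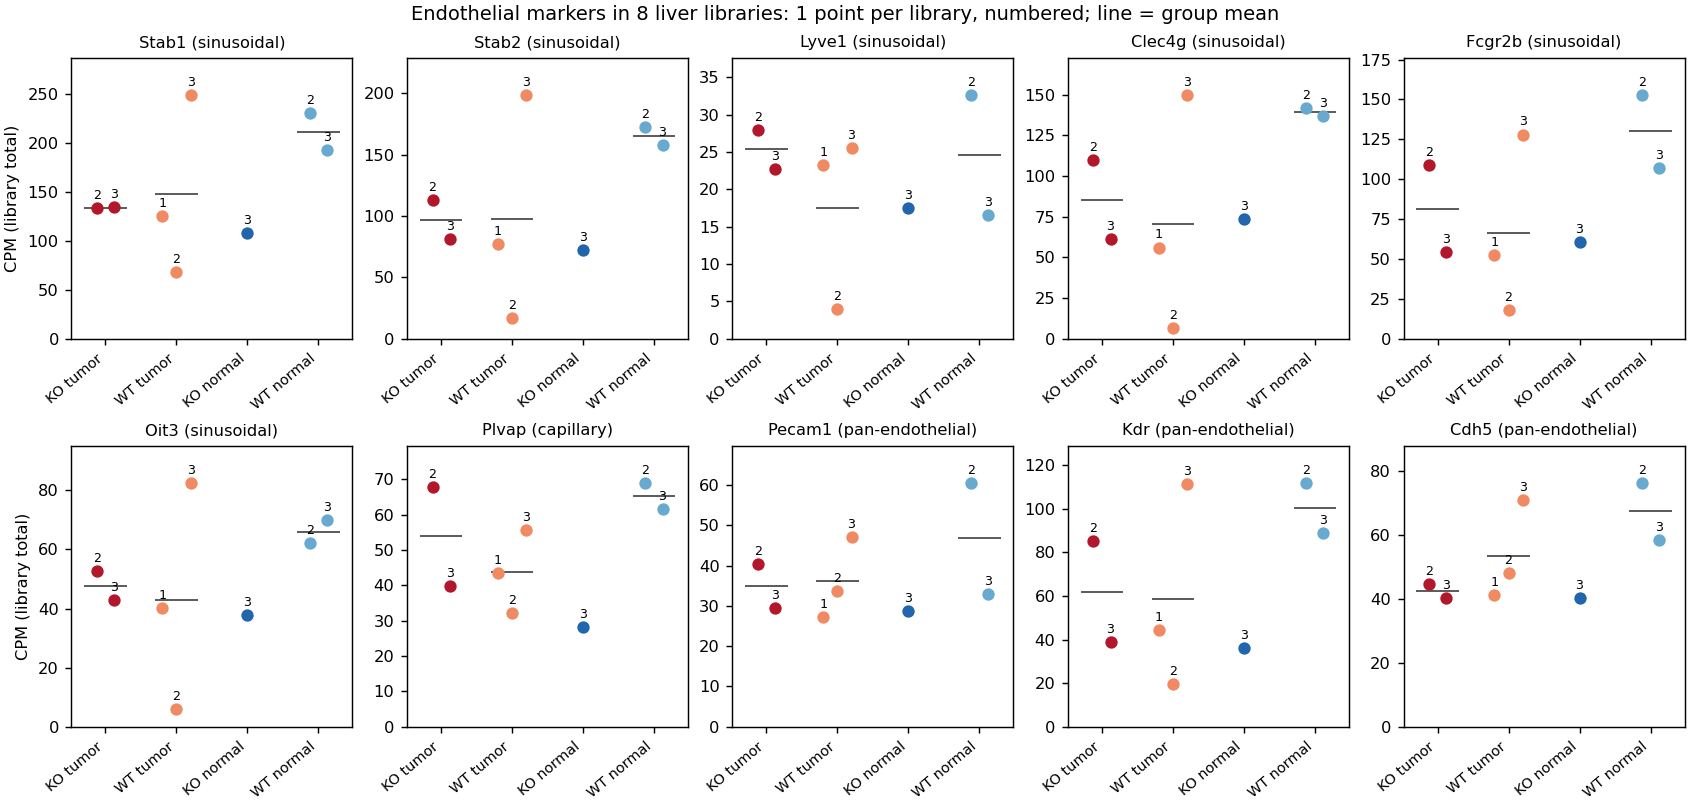
Each panel plots 1 marker as CPM by library total on a linear axis from 0, with 1 numbered point per library and a line at the mean of groups with 2 or more libraries. WT tumor 2 is the lowest point for the 6 sinusoidal genes and Kdr, and lies among the other libraries for Pecam1 and Cdh5.

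The 6 sinusoidal genes shared 1 pattern: each was lowest of the 8 libraries in WT tumor 2. Clec4g, a lectin receptor of sinusoidal endothelium also called LSECtin, had 110.1 and 61.0 CPM in KO tumors 2 and 3, and 56.1, 6.31 and 150.0 CPM in WT tumors 1, 2 and 3. It had 73.7 CPM in KO normal 3, and 142 and 137 CPM in WT normal 2 and 3. WT tumor 2 was thus at 5.73% of the median of the other 7 libraries, while WT tumor 3 was the highest library of all. Oit3, a zona pellucida domain protein of the sinusoidal lining, had 52.7 and 42.7 CPM in KO tumors, and 40.1, 6.16 and 82.6 CPM in WT tumors 1, 2 and 3. It had 37.7 CPM in KO normal 3, and 62.0 and 69.9 CPM in WT normal 2 and 3. Here too WT tumor 2 was lowest, at 11.7% of the median of the others, and WT tumor 3 was highest.

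The stabilins are large scavenger receptors, and Stab2 is the main receptor by which the liver clears hyaluronan. Stab2 had 113 and 81.1 CPM in KO tumors 2 and 3, and 77.3, 16.8 and 199 CPM in WT tumors 1, 2 and 3. Normal livers had 72.0 CPM in KO normal 3, and 173 and 158 CPM in WT normal 2 and 3. WT tumor 2 stood at 14.9% of the median of the other libraries. Stab1, which is also expressed by macrophages, had 133 and 134 CPM in KO tumors, and 125, 68.0 and 249 CPM in WT tumors 1, 2 and 3. It had 108 CPM in KO normal 3, and 229.9 and 193 CPM in WT normal 2 and 3. Its order of libraries resembled that of Stab2, but WT tumor 2 was at 50.7% of the median of the others, the mildest difference of the 6 genes. Exons of Stab1, Stab2, Clec4g and Fcgr2b overlap a gene on the opposite strand in GENCODE, and strand use in counting is not given in the sources used here, so some of their reads could belong to the partner.

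Fcgr2b, the inhibitory Fc receptor with which sinusoidal cells clear small immune complexes, is also made by B cells and macrophages. It had 109 and 54.1 CPM in KO tumors 2 and 3, and 52.3, 18.2 and 128 CPM in WT tumors 1, 2 and 3. Its normal livers had 60.4 CPM in KO normal 3, and 153 and 107 CPM in WT normal 2 and 3. Lyve1, a hyaluronan receptor shared by sinusoidal and lymphatic endothelium and some macrophages, had 27.9 and 22.8 CPM in KO tumors, and 23.2, 3.91 and 25.6 CPM in WT tumors 1, 2 and 3. It had 17.4 CPM in KO normal 3, and 32.7 and 16.6 CPM in WT normal 2 and 3. Relative to the median of the other libraries WT tumor 2 was at 17.1% for Fcgr2b and 16.9% for Lyve1. Outside that library the spread of Lyve1 was small and did not follow the other sinusoidal genes. Its Pearson r with the mean of the other sinusoidal genes was 0.87 over 8 libraries and 0.04 over the 7 without WT tumor 2.

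Among the genes not restricted to sinusoids, Kdr followed the sinusoidal pattern and the others did so less. Kdr, the main VEGF receptor of endothelium, had 85.0 and 38.9 CPM in KO tumors 2 and 3, and 44.5, 19.8 and 111 CPM in WT tumors 1, 2 and 3. It had 36.1 CPM in KO normal 3, and 112 and 88.8 CPM in WT normal 2 and 3, so that WT tumor 2 was again lowest, at 23.3% of the median of the others. Its r with the sinusoidal mean was 0.90, and 0.97 without WT tumor 2. Cdh5, the cadherin of endothelial junctions, had 44.8 and 40.3 CPM in KO tumors, and 41.3, 48.1 and 70.8 CPM in WT tumors 1, 2 and 3. It had 40.3 CPM in KO normal 3, and 76.3 and 58.5 CPM in WT normal 2 and 3. In WT tumor 2 it was at 107% of the median of the others, and 4 libraries were lower. Pecam1, an adhesion molecule of endothelium and some leukocytes, had 40.3 and 29.5 CPM in KO tumors, and 27.3, 33.8 and 47.1 CPM in WT tumors 1, 2 and 3. It had 28.7 CPM in KO normal 3, and 60.5 and 32.9 CPM in WT normal 2 and 3. WT tumor 2 was at 102% of the median of the others, again with 4 libraries lower. The r with the sinusoidal mean was 0.26 for Cdh5 and 0.25 for Pecam1 over 8 libraries, but 0.92 and 0.83 without WT tumor 2.

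Plvap, the protein of the diaphragms that close endothelial pores, had 67.8 and 39.8 CPM in KO tumors 2 and 3, and 43.6, 32.3 and 55.6 CPM in WT tumors 1, 2 and 3. It had 28.2 CPM in KO normal 3, and 69.0 and 61.7 CPM in WT normal 2 and 3. The lowest library was KO normal 3, and WT tumor 2 was second lowest, at 58.1% of the median of the others. The 3 WT tumors lay below both WT normal livers, and both KO tumors lay above the single KO normal liver. Those WT groups did not overlap for 14.9% of all tested genes. The KO order was also that of Stab1, Stab2, Lyve1, Oit3, Pecam1, Kdr and Cdh5. For Cdh5 it rests on 40.336 CPM in KO tumor 3 against 40.332 CPM in KO normal 3. The share of all genes with the KO order was not computed, so it is not read as a trait of the members. The highest value of Plvap, in WT normal 2, differed little from that of KO tumor 2.

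Setting the groups of genes against each other within a library left WT tumor 2 apart from all other libraries. The mean log2 CPM of the 6 sinusoidal genes minus that of the 3 general genes was 0.58 and 0.67 in KO tumors 2 and 3, and 0.57, -1.39 and 0.64 in WT tumors 1, 2 and 3. It was 0.62 in KO normal 3, and 0.45 and 0.69 in WT normal 2 and 3. The 7 other libraries thus held this difference within 0.45 to 0.69, tumor and normal, KO and WT alike, although the level of the sinusoidal genes varied among them. With Cdh5 alone as the denominator the difference was -1.99 in WT tumor 2, against 0.40 to 0.84 in the other libraries. This ratio describes how far the sinusoidal genes departed from Cdh5, and does not show that Cdh5 itself was unaffected. Kdr minus Cdh5 was -1.28 in WT tumor 2, against -0.16 to 0.92 in the others. Plvap minus Cdh5 was -0.57 in WT tumor 2, just under the -0.52 of KO normal 3, with the other 6 libraries between -0.35 and 0.60. Pecam1 minus Cdh5 was -0.51 there, inside the range of -0.83 to -0.15 of the other libraries. Of the sinusoidal genes, the difference from Cdh5 was -3.62 for Lyve1, -2.96 for Oit3, -2.93 for Clec4g, -1.51 for Stab2 and -1.40 for Fcgr2b in WT tumor 2, and 0.50 for Stab1. For each of the 6 this was the lowest of the 8 libraries.

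**Figure D2:**
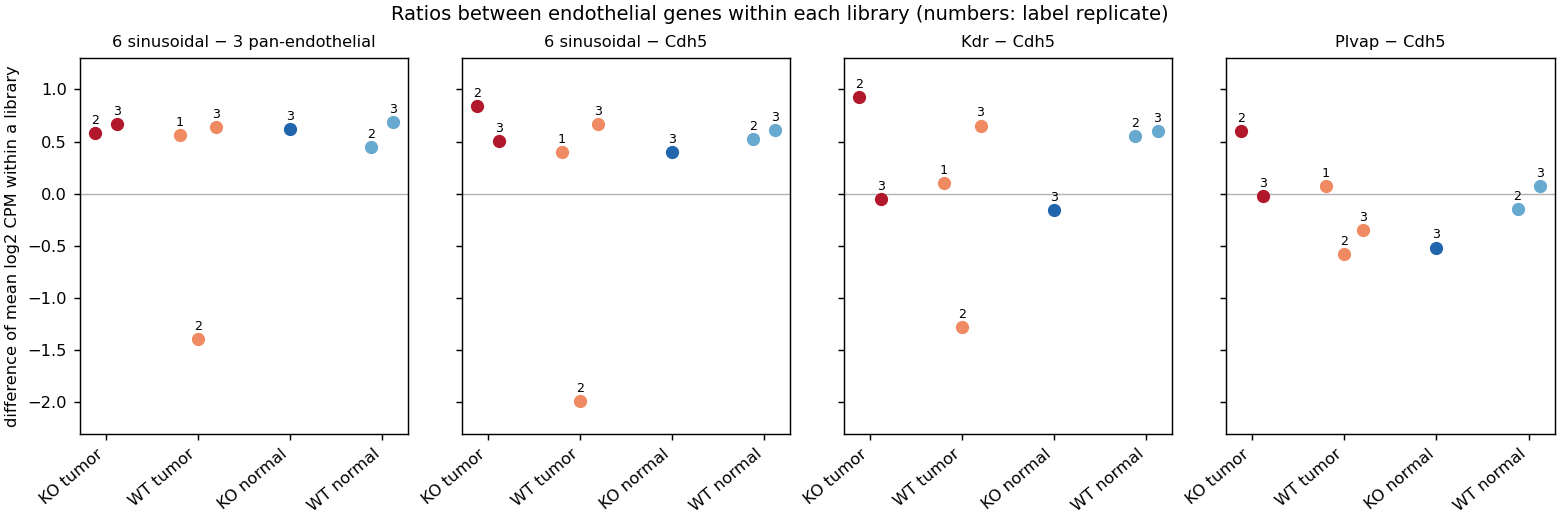
Points are differences of mean log2 CPM between groups of endothelial genes within a library, on a shared linear axis, with the label number beside each point. In the 2 panels of sinusoidal genes WT tumor 2 lies at -1.39 and -1.99 and the other 7 libraries between 0.40 and 0.84.

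WT tumor 2 was also extreme over the whole table, which sets the scale for these ranks. Of 14726 tested genes, 36.5% were lowest there, as were 7 of the 10 members, and 21.7% were highest there, as was 0 of the 10. WT normal 2 was highest for 6 members and for 34.8% of all tested genes, and WT tumor 3 was highest for the other 4. KO normal 3 was lowest for 2 members, and WT tumor 1 for 1.

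Tumor was first set against normal liver of the same number, for which 3 pairs could be formed. In WT tumor 2 the 10 members were at 4.44% (Clec4g) to 63.0% (Cdh5) of their level in WT normal 2. Stab2 was at 9.74%, Oit3 at 9.93%, Fcgr2b at 11.9%, Lyve1 at 11.96%, Kdr at 17.7% and Stab1 at 29.6%, while Plvap was at 46.8% and Pecam1 at 55.8%. The sinusoidal genes therefore lay below Plvap, Pecam1 and Cdh5 in this pair. These shares depend on scaling by library total, and Alb took 14.1% of counts in WT tumor 2 and 5.05% in WT normal 2. For this pair the authors' deposited log2 fold changes were less negative. Clec4g had -4.09 there against -4.49 here, and Kdr -2.10 against -2.50. The part of scaling in the low shares was not tested. In KO tumor 3 the members were at 82.8% (Clec4g) to 141% (Plvap) of KO normal 3, with 2 lower and 8 higher, among them Cdh5 at 100.01%. In WT tumor 3 they were at 90.2% (Plvap) to 154% (Lyve1) of WT normal 3, with 9 of 10 higher. The low sinusoidal level was therefore seen in 1 of the 3 pairs, and the other 2 held no member under 82.8% of its normal liver.

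**Figure D3:**
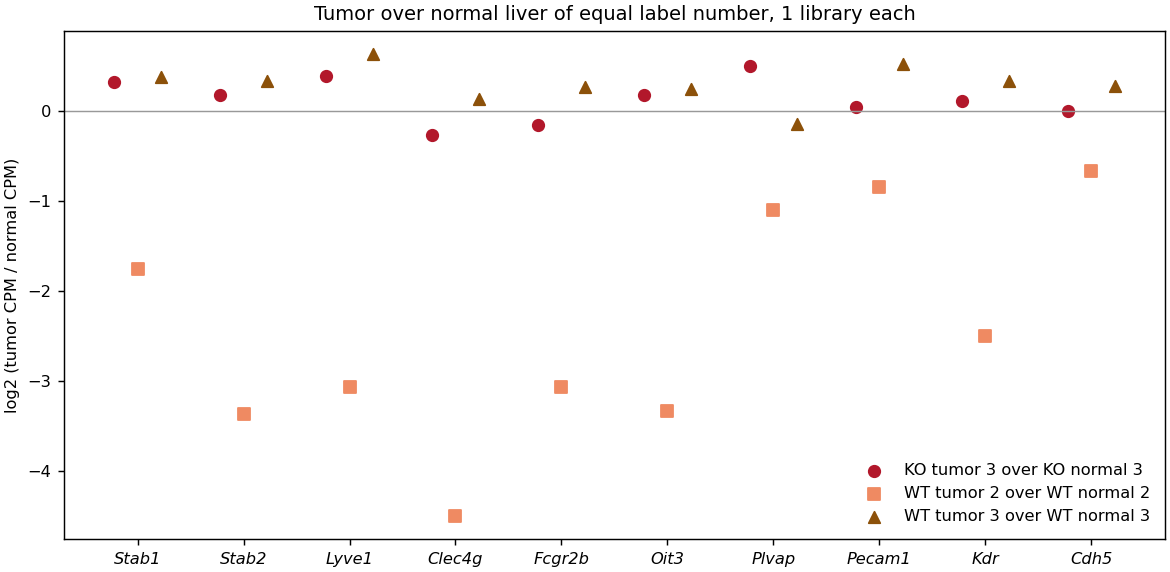
The plot gives log2 of tumor over normal CPM for each marker in the 3 pairs of libraries with equal label numbers, 1 library on each side. WT tumor 2 lies below 0 for all 10 genes, between -4.49 for Clec4g and -0.67 for Cdh5, and the other pairs lie between -0.27 and 0.63.

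The authors' deposited table for WT tumor 2 over WT normal 2 lists 1001 genes past a fold change of 2 and an unadjusted p of 0.05, and 6 members are among them, that is 60.0% of the members and 4.58% of all genes in the count table. In the authors' deposited table Clec4g has a log2 fold change of -4.09 with an adjusted p of 0.0125. The other 5 members in the authors' deposited table are Stab2 at -2.96, Oit3 at -2.93, Fcgr2b at -2.67, Lyve1 at -2.66 and Kdr at -2.10, with adjusted p-values of 0.103 to 0.591. Those p-values compare 1 library with 1 library, and Stab1, Plvap, Pecam1 and Cdh5 are not listed. The authors' deposited tables for KO tumor 3 over KO normal 3, with 317 genes or 1.45% of the count table, and for WT tumor 3 over WT normal 3, with 270 genes or 1.23%, list 0 members. 

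Across libraries, the 5 tumors were compared with the 3 normal livers with genotype as a covariate. All 10 members had a lower fitted level in tumor, and none passed the test. Clec4g averaged 76.7 ± 55.0 CPM in tumors and 118 ± 38.1 CPM in normal livers (SD, n = 5 and 3), -0.56 ± 0.77 (SE) on the log2 scale with a 95% interval of -2.36 to 1.25. The change was -0.46 ± 0.56 for Fcgr2b, -0.33 ± 0.64 for Stab2, -0.11 ± 0.16 for Cdh5 and -0.02 ± 0.30 for Plvap. With edgeR and Benjamini-Hochberg adjustment over 14726 genes the adjusted p of the members was 0.922 to 0.995, and 0% of all genes were called. At an unadjusted p under 0.05 edgeR had 259 genes and 0 members, DESeq2 called 5 genes and limma-voom 0, none of them a member. The median over the 6 sinusoidal genes was -0.30, beside a median of 0.01 over all tested genes, of which 47.8% were lower in tumor. The median was -0.64 with limma-voom and -0.70 and -0.61 on log2 FPKM with a pseudocount of 0.1 and 1, and Clec4g had -1.12 with limma-voom, so the size of these changes depends on the model. The mean change of the sinusoidal genes minus that of the 3 general genes was -0.18. Tumor and normal libraries overlapped for all 10 members, and did not overlap for 1.58% of all genes. Without WT tumor 2 the change of Stab2 was 0.037.

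Within wild type, the 3 tumors were compared with the 2 normal livers. All 10 members were again lower in tumor without passing the test. The largest differences were those of Clec4g, with 70.8 ± 73.0 CPM in WT tumors and 139 ± 3.75 CPM in WT normal livers (SD, n = 3 and 2), a log2 fold change of -0.90 ± 0.98 (SE), and of Fcgr2b at -0.86 ± 0.68. Stab2 and Kdr both had -0.67, with SEs of 0.79 and 0.63, and Oit3 had -0.54 ± 0.82. Stab1 had -0.40 ± 0.45, Lyve1 -0.33 ± 0.67, Pecam1 -0.20 ± 0.27 and Cdh5 -0.18 ± 0.21. The SD of Clec4g among the WT tumors was larger than its mean there, and WT tumors 2 and 3 were the lowest and the highest library of the 8. Plvap averaged 43.8 ± 11.6 CPM in WT tumors and 65.3 ± 5.20 CPM in WT normal livers, a change of -0.43 ± 0.25 with an interval of -1.04 to 0.17. It was the only member whose libraries did not overlap between the groups, 1 of 10, while 14.9% of all tested genes did not overlap. By edgeR the adjusted p of the members was 0.845 to 0.905 and 0% of all genes were called, with 341 genes and 0 members at an unadjusted p under 0.05. DESeq2 called 13 genes, limma-voom 0, and neither a member. The median of the sinusoidal genes was -0.61, beside 0.0030 over all genes, of which 49.4% were lower in tumor, and their mean change minus that of the general genes was -0.27. Without WT tumor 2 the change of Lyve1 was 0.15.

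KO was compared with WT over both tissues, in 3 against 5 libraries. The fitted level was lower in KO for 9 of 10 members. Cdh5 had the smallest p, with 41.8 ± 2.57 CPM in KO libraries and 59.0 ± 14.8 CPM in WT libraries (SD, n = 3 and 5), -0.43 ± 0.16 (SE) on the log2 scale with an interval of -0.81 to -0.06. Its unadjusted p was 0.0275 and its edgeR adjusted p 0.705, so it did not pass. The 3 KO libraries lay between 40.3 and 44.8 CPM, and WT tumor 1, at 41.3 CPM, fell inside that range. Stab1 had -0.37 ± 0.36 and Kdr -0.37 ± 0.55, while Lyve1 had 0.24 ± 0.53. For Kdr the change was 0.064 without WT tumor 3 and 0.046 without KO normal 3, and for Lyve1 it was -0.093 without WT tumor 2. The median of the sinusoidal genes was -0.11, beside -0.02 over all genes, of which 52.8% were lower in KO. Their mean change minus that of the general genes was 0.22. By edgeR 0% of all genes and 0 members were called, with 1009 genes and 1 member at an unadjusted p under 0.05. DESeq2 called 45 genes and limma-voom 0, none a member, and leaving out KO tumor 2 gave 2 edgeR calls over all genes. Libraries did not overlap for 0 of 10 members and for 5.76% of all genes. The muscle genes were high in 2 of the 3 KO libraries, and their part in this comparison was not tested. A list of 8 neutrophil genes summed to 281 CPM in KO tumor 3 and 254 CPM in KO normal 3, against 19.7 to 49.2 CPM in the other libraries, and its part was not tested either.

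Among tumors, 2 KO libraries were compared with 3 WT libraries. Of the 10 members 7 were higher in KO tumors and 3 were lower. Changes ran from -0.36 ± 0.21 (SE) for Cdh5 to 0.51 ± 0.67 for Lyve1. The median of the sinusoidal genes was 0.22, beside -0.0037 over all genes, and their mean change minus that of the general genes was 0.31. Plvap averaged 53.8 ± 19.8 CPM in KO tumors and 43.8 ± 11.6 CPM in WT tumors (SD, n = 2 and 3), a change of 0.25 ± 0.25 that was -0.13 without KO tumor 2, the library with the muscle and squamous genes. No member passed the edgeR test, with adjusted p-values of at least 0.888, and 0% of all genes were called. At an unadjusted p under 0.05 there were 430 genes and 0 members, while DESeq2 called 4 genes and limma-voom 0, none a member. KO and WT tumors overlapped for all 10 members, beside 17.1% of all genes that did not overlap. The WT tumors spanned a wider range than the KO tumors for all 6 sinusoidal genes. For Clec4g it was 6.31 to 150.0 CPM, against 61.0 to 110.1 CPM in KO tumors. The WT range covered 3 libraries, with the low WT tumor 2 among them, and the KO range 2. A range widens with more libraries, and the difference in spread was not tested.

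The difference between the tumor effects of the genotypes rests on the single KO normal liver, assumed to vary like the other groups. It was positive for all 10 members and largest for Kdr, at 1.37 ± 1.09 (SE) on the log2 scale, and for Plvap, at 1.29 ± 0.44 with an interval of 0.24 to 2.34. Fcgr2b had 1.22 ± 1.17 and Cdh5 0.20 ± 0.35. The median of the sinusoidal genes was 0.93, beside 0.014 over all genes, and their mean minus that of the general genes was 0.27. Plvap had an unadjusted p of 0.0230 and an edgeR adjusted p of 0.9999, so the difference did not pass. By edgeR 0% of all genes were called, with 47 genes and 1 member, Plvap, at an unadjusted p under 0.05, and DESeq2 and limma-voom also called 0.

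The medians of the sinusoidal genes moved with single libraries, WT tumors 2 and 3 among them, which were the lowest and the highest library for most of these genes. For tumor over normal the median was 0.046 without WT tumor 2, -0.82 without WT tumor 3 and -0.59 without KO normal 3. For WT tumor over WT normal it was -0.11 without WT tumor 2 and -1.47 without WT tumor 3. For KO over WT tumors it was -0.33 without WT tumor 2, 0.95 without WT tumor 3 and -0.13 without KO tumor 2. For KO over WT it was -0.47 without WT tumor 2, -0.42 without KO tumor 2, 0.36 without WT tumor 3 and 0.20 without KO normal 3. The tumor effect in KO minus that in WT was 0.38 without WT tumor 2 and 1.79 without WT tumor 3. The sign thus depended on the libraries included in all but the comparison within wild type and the difference of tumor effects.

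The mean change of the sinusoidal genes minus that of the general genes came close to 0 without WT tumor 2 in all 5 comparisons. It was then 0.036 for tumor over normal, 0.054 for WT tumor over WT normal, -0.0088 for KO over WT tumors, 0.010 for KO over WT and -0.054 for the difference of tumor effects. Without WT tumor 3 the same values were -0.41, -0.64, 0.69, 0.45 and 0.64, farther from 0 than with all libraries.

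**Figure D4:**
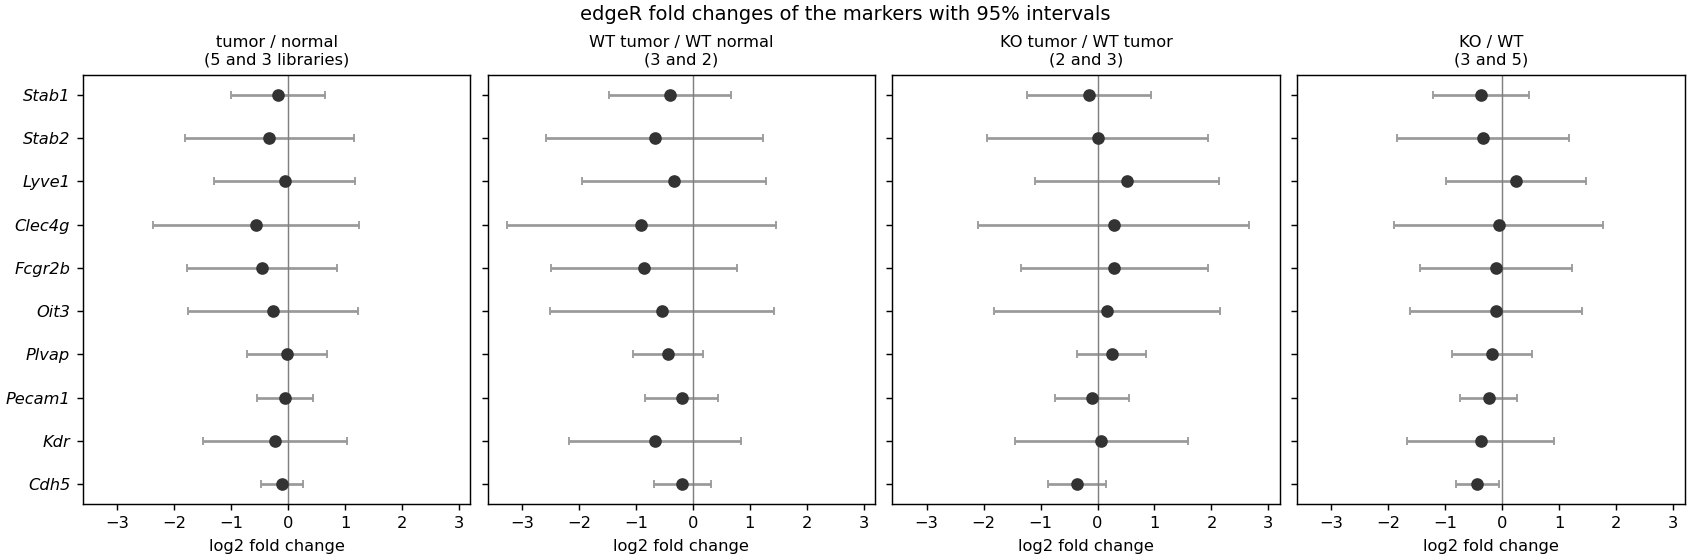
Points are edgeR log2 fold changes of the 10 markers in 4 comparisons, on a linear axis with 95% intervals as bars. All 10 points lie below 0 for tumor over normal and for WT tumor over WT normal, 7 of 10 lie above 0 for KO over WT tumors, and the intervals cross 0 for every gene but Cdh5 in KO over WT, whose edgeR adjusted p was 0.705.

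A list of 18 other sinusoidal genes, none of them a member, had the same lowest library. The highest library was more often WT normal 2, for 10 of the 18, against 2 of the 6 sinusoidal members. All 18 were lowest in WT tumor 2, and their summed level was 90.1 CPM there, against 411 to 919 CPM in the other libraries. By the rule for named genes Rspo3, a Wnt pathway enhancer secreted by endothelium of the central vein region, had 8.43 and 3.55 CPM in KO tumors 2 and 3, and 4.09, 0.551 and 6.87 CPM in WT tumors 1, 2 and 3. It had 3.78 CPM in KO normal 3, and 13.1 and 6.70 CPM in WT normal 2 and 3. WT tumor 2 was thus far below its neighbours. The cytokine Il1a had 1.65 CPM in WT tumor 2 and 4.20 to 11.7 CPM elsewhere, and the adhesion protein Adam23 had 1.75 CPM there and 10.7 to 50.2 CPM elsewhere. Gata4, the transcription factor of sinusoidal identity, had 4.71 CPM in WT tumor 2 and 10.1 to 29.7 CPM elsewhere. Tfec had 1.10 CPM there and 1.70 to 4.53 CPM elsewhere, and the receptor Kit had 4.71 CPM there and 6.403 to 18.8 CPM elsewhere. The Wnt ligand Wnt9b had 0.2504 CPM there and 1.69 to 7.31 CPM elsewhere, and the lectin Cd209b had 0 CPM there and 0.237 to 1.18 CPM elsewhere. Both are too low for firm values. Wnt2 and F8 were picked after their values were seen. The angiocrine Wnt2 had 0.2003 CPM there and 3.13 to 12.5 CPM elsewhere, and F8, clotting factor VIII, had 4.81 CPM there and 20.8 to 62.5 CPM elsewhere. In wild type all 18 were lower in tumor, with a median log2 fold change of -0.67, and over both genotypes all 18 were lower, with a median of -0.32. None passed the edgeR test in any of the 5 comparisons, and 0 of them had an unadjusted p under 0.05 in any. DESeq2 and limma-voom called 0 of the 18 as well.

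Other general endothelial genes were low in WT tumor 2 as well, with exceptions. Of 18 such genes 15 were lowest there, beside 36.5% of all tested genes. The list summed to 228 CPM in WT tumor 2, against 387 to 921 CPM in the other libraries. Clec14a, an endothelial adhesion lectin, had 7.61 CPM in WT tumor 2 and 14.0 to 59.9 CPM elsewhere. Egfl7, a secreted endothelial factor, had 21.2 CPM in WT tumor 2 and 24.0 to 62.4 CPM elsewhere. The receptor Tie1 had 13.2 CPM in WT tumor 2 and 14.9 to 55.4 CPM elsewhere, and the transcription factor Sox7 had 3.11 CPM there and 3.32 to 10.997 CPM elsewhere. Mmrn2, with 13.4 CPM, and Ecscr, with 4.06 CPM, lay inside the ranges of the other libraries, 10.2 to 31.2 and 2.66 to 8.48 CPM. Cd93, an endothelial lectin also found on myeloid cells, went the other way, with 28.4 CPM in WT tumor 2 and 9.23 to 21.7 CPM elsewhere. The receptors Tek and Eng, named after their values were seen, had 4.51 and 33.6 CPM in WT tumor 2, against 11.02 to 41.6 CPM for Tek and 97.0 to 212 CPM for Eng in the other libraries. The general list was therefore mixed, with Cdh5, Pecam1 and Cd93 at or above the middle of the libraries and Tek, Eng and Kdr lowest. In KO over WT all 18 were lower, with a median log2 fold change of -0.32, and Cd93 had -0.71 with an unadjusted p of 0.0361 and an edgeR adjusted p of 0.705. By edgeR, DESeq2 and limma-voom 0 of the 18 were called in any comparison, and Cd93 and Clec14a were the only ones at an unadjusted edgeR p under 0.05, in 1 comparison each.

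Genes of capillaries and larger vessels did not share the sinusoidal pattern. Of 22 such genes 5 were lowest and 6 highest in WT tumor 2, while 13 were highest in WT normal 2. Over all tested genes 36.5% were lowest and 21.7% highest in WT tumor 2, and 34.8% were highest in WT normal 2. The sum of the 22 was highest in WT tumor 2, at 860.4 CPM against 189.8 to 593 CPM elsewhere. Chains of the basement membrane collagen IV made up most of that sum. Col4a1 had 438 CPM in WT tumor 2 and 40.4 to 131 CPM elsewhere, and Col4a2 had 230.04 CPM there and 26.3 to 84.0 CPM elsewhere. Collagen IV is also made by stellate cells and tumor cells. Apln, the apelin peptide of sprouting tip cells, had 27.7 CPM in WT tumor 2, against 0 to 1.14 CPM elsewhere. Esm1, another tip cell gene, had 25.3 CPM in WT tumor 2 and 1.72 to 9.49 CPM elsewhere. Pdgfb, which recruits pericytes, had 14.2 CPM there and 2.48 to 11.5 CPM elsewhere. Other members of the list did not follow. Cd34 had 12.3 CPM in WT tumor 2, inside the 3.38 to 20.7 CPM of the other libraries, and Vwf, the clotting protein of larger vessels, had 7.66 CPM there and 23.6 to 136 CPM elsewhere. Selp, an adhesion molecule of activated vessels, had 2.40 CPM there and 2.90 to 20.7 CPM elsewhere. The kinase Bmx had 0.401 CPM there and 0.355 to 1.93 CPM elsewhere. Cd34 was named after its values were seen. By edgeR, DESeq2 and limma-voom 0 of the 22 were called in any comparison, and at an unadjusted edgeR p under 0.05 there was 1 gene higher in tumor over both genotypes (Apln) and 1 lower in tumor within wild type (Selp).

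The vessel growth factors and their receptors were divided. Of 18 such genes 9 were lowest in WT tumor 2, beside 36.5% of all tested genes. Pgf, a VEGF family ligand, had 8.51 CPM in WT tumor 2 and 0.116 to 0.839 CPM elsewhere, and Angpt2, which loosens vessel walls, had 22.8 CPM there and 2.78 to 7.56 CPM elsewhere. Both were highest in that library. Nrp1, a VEGF co-receptor, had 47.8 CPM there and 51.3 to 168 CPM elsewhere. Its relative Nrp2 had 9.32 CPM there and 18.9 to 41.8 CPM elsewhere, the ligand Vegfb had 10.7 CPM there and 17.8 to 31.0 CPM elsewhere, and Angptl2 had 8.61 CPM there and 9.70 to 29.4 CPM elsewhere. These 4 were lowest in that library. The Notch ligands Jag1, with 14.4 CPM, and Jag2, with 2.003 CPM, lay inside the ranges of the other libraries, 6.09 to 24.7 and 0.229 to 4.01 CPM. The Notch ligand Dll4 and the endothelial receptor Notch4 were not low in WT tumor 2, with 8.26 and 14.1 CPM, against 4.77 to 10.2 CPM for Dll4 and 5.85 to 15.9 CPM for Notch4 in the other libraries. In KO over WT their log2 fold changes were -0.60 for Dll4 and -0.64 for Notch4, with unadjusted p-values of 0.0244 and 0.0328 and an edgeR adjusted p of 0.705 for both. Vegfa, named after its values were seen, had 103 CPM in WT tumor 2 and 151 to 225 CPM elsewhere. By edgeR, DESeq2 and limma-voom 0 of the 18 were called in any comparison. At an unadjusted edgeR p under 0.05 were Dll4 and Notch4 in KO over WT and Notch4 in KO over WT tumors.

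Most genes of the Kupffer, stellate, B cell, lymphatic and biliary lists were lowest in WT tumor 2, as were 36.5% of all tested genes. Low values there were thus not particular to cells of the sinusoid. All 13 Kupffer cell genes were lowest there, with a sum of 238 CPM against 423 to 1064 CPM elsewhere. Clec4f, a lectin of resident Kupffer cells, had 6.11 CPM in WT tumor 2 and 49.8 to 149 CPM elsewhere, and Cd5l had 12.4 CPM there and 48.5 to 160.4 CPM elsewhere. Of 11 stellate cell genes 9 were lowest there, with a sum of 257 CPM against 544 to 1272 CPM elsewhere. Of 7 B cell genes 6 were lowest there, with a sum of 6.46 CPM against 9.94 to 30.3 CPM elsewhere, and Cd79a, part of the B cell receptor, had 1.40 CPM against 2.05 to 7.40 CPM. No gene of these lists was at 0 in all libraries. Macrophages share Stab1, Lyve1 and Fcgr2b with sinusoidal endothelium, and B cells share Fcgr2b. The part of macrophages and B cells in the values of these 3 genes was not tested. Of 5 lymphatic genes 4 were lowest in WT tumor 2 and 1 was highest there. Pdpn had 0.2003 CPM in WT tumor 2 and 0.466 to 3.50 CPM elsewhere. Prox1, which hepatocytes also express, had 144 CPM there and 91.6 to 125.6 CPM elsewhere. Of 6 biliary genes 4 were lowest in WT tumor 2, but their sum, 589 CPM, lay inside the 174 to 758 CPM of the other libraries. Of 7 muscle genes 3 were lowest there, and of 8 neutrophil genes 1. The 8 hepatocyte genes were divided in WT tumor 2, with 2 highest and 2 lowest there. Alb had 140883 CPM there and 50476 to 116648 CPM elsewhere, while Fah, an enzyme of tyrosine breakdown, had 174.8 CPM there and 504 to 863 CPM elsewhere. Hnf4a, a hepatocyte transcription factor, had 565 CPM there and 591 to 986 CPM elsewhere. These 3 genes were chosen after their values were seen.

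**Figure D5:**
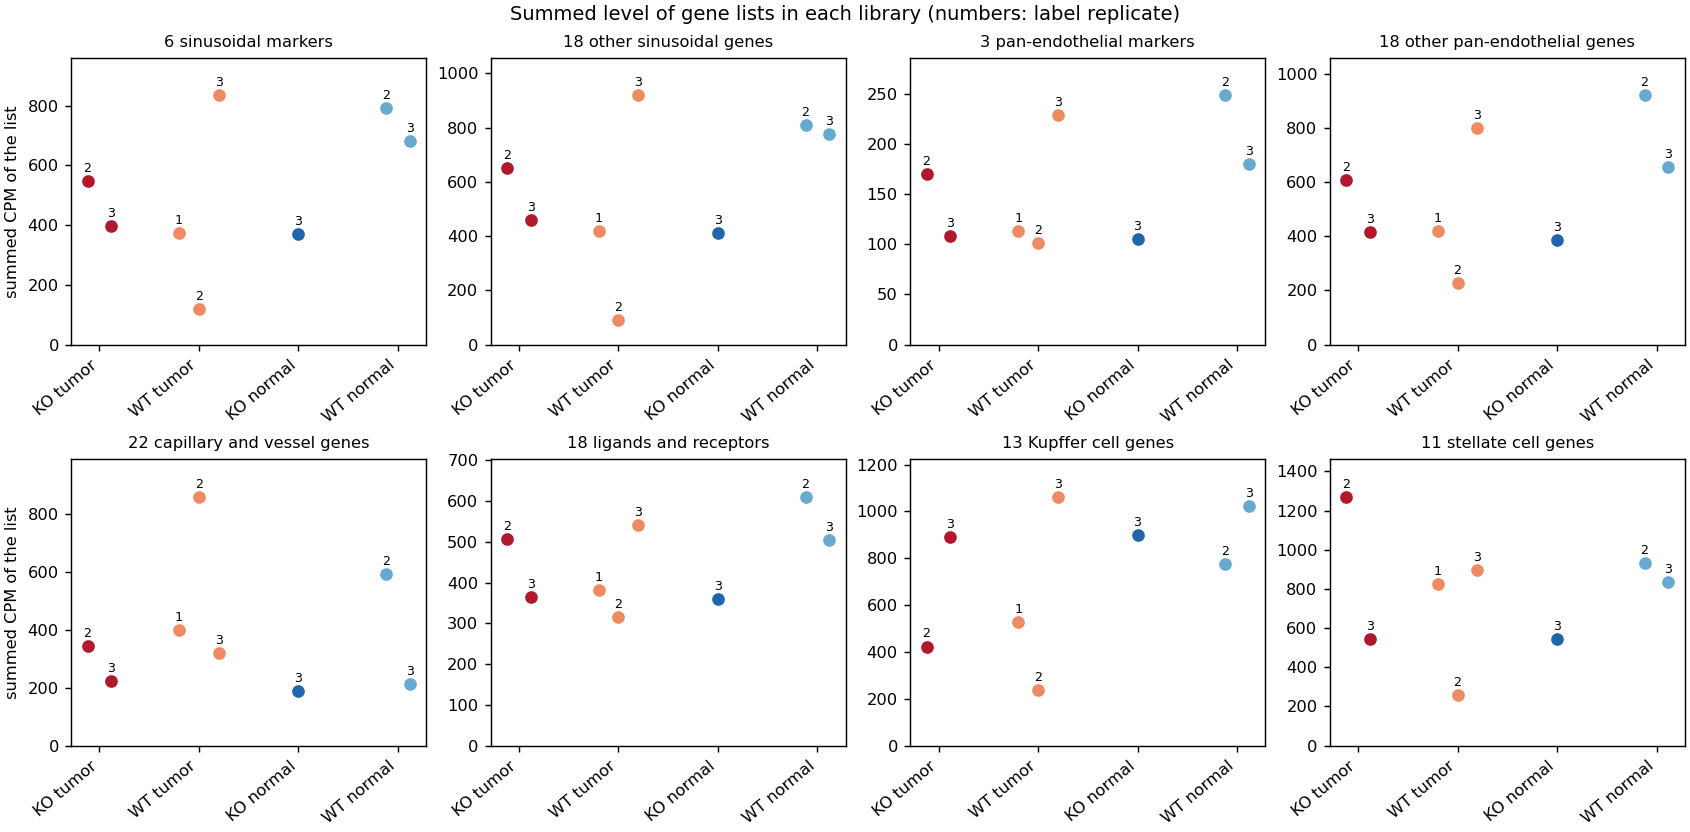
Each panel plots the summed CPM of a gene list per library on a linear axis from 0, with label numbers beside the points. WT tumor 2 has the lowest sum for sinusoidal, Kupffer and stellate genes, and also for general endothelial genes and for ligands and receptors. For the 3 general markers it has 101.6 CPM, close to the 105.1 CPM of KO normal 3. The sum of WT tumor 2 is the highest, at 860.4 CPM, for the 22 capillary and vessel genes, most of it from Col4a1 and Col4a2.

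Genes whose pattern over the 8 libraries was most like the sinusoidal mean were ranked by Pearson r of log2 values among 12914 genes with a mean of at least 1 CPM. The first 10 were Slc43a3 (r = 0.998), Plxnc1, Mrc1, Dnase1l3, Ptprb, Cacng7, Tmem132e, Eng, Chst15 and Hoxb4 (r = 0.992). Of these, Mrc1 and Dnase1l3 belong to the list of other sinusoidal genes, and Ptprb and Eng to the general endothelial list. The transporter Slc43a3 had 55.9 and 39.6 CPM in KO tumors 2 and 3, 39.0, 8.82 and 70.7 CPM in WT tumors 1, 2 and 3, 35.5 CPM in KO normal 3, and 75.0 and 57.6 CPM in WT normal 2 and 3. Its r without WT tumor 2 was 0.990, so the likeness did not need that library. The r of the 10th gene, Hoxb4, fell to 0.942 without it. The 6 sinusoidal members themselves had r of 0.87 to 0.99, each against the mean of the other sinusoidal members. Nearest to Plvap were Nrxn2, Pcnx4, Mark1, Dpm3 and Klhl8, with r between 0.960 and 0.966, and none of these 5 is on an endothelial list used here. The 8 points share library composition and depth, so these values are descriptions only.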

How the data were processed

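RNA was sequenced from 8 mouse liver libraries, prepared with the TruSeq stranded mRNA kit from RNA with an integrity number of 7 or more, per the labels' protocols. The deposited count table holds whole-number counts per gene for 21878 genes, and a second deposited table gives the authors' FPKM, whose formula is not given in the sources used here. The authors' deposited comparison tables hold ratios (fold changes), their log2 values, p-values and adjusted p-values for 1 library against 1 library, limited to genes with an unadjusted p under 0.05 and a change of at least 2-fold. Bowtie 0.12.2 and the builds mm8 and mm9 are named, with no role, per the submitters' processing notes, and the counting tool is not given in the sources used here. Another 16 per-library columns were left unused, 2 of them with names that fit no sample.

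Counts were fitted with edgeR 4.0.16 in R 4.3.3, with TMM factors, a robust quasi-likelihood fit and the expression filter at a minimum count of 10, which left 14726 genes, with a common biological coefficient of variation of 0.44. Tumor against normal and KO against WT came from a model with genotype and tissue as additive terms, the other comparisons from 1 mean per group. The threshold was an adjusted p of 0.05 (Benjamini-Hochberg). CPM are counts over library totals, and differences within a library are of log2 CPM. Library totals of 11912549 to 19965842 limit precision for genes of low count. KO normal is 1 library, assumed to vary like the other groups.

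The scripts were tested on simulated data with less spread than these libraries and no outlying library, so the power here was not measured. The members and the lists of other genes were chosen with earlier results of these data known. Named were all 10 members, the 3 genes of smallest p per comparison for each of the 4 endothelial lists, Clec4f, Cd5l, Cd79a and Pdpn for other cell types, the 10 genes most like the sinusoidal mean and the 5 most like Plvap, and a few genes said to be picked after their values were seen. Alternatives were other scaling factors, other filters, DESeq2 1.42.0, limma-voom (limma 3.58.1), limma on log2 FPKM with a pseudocount of 0.1 or 1, a replicate block, and leaving out libraries. Gene positions and overlaps are from GENCODE for GRCm38, and promoter windows and their sequence from RefSeq for GRCm38.p6.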

Additional observations from a re-analysis of the deposited data

Results flagged for a closer look

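In each case of a library apart, the gap of the extreme library to its nearest neighbour was set against the whole range of 5 libraries, with a critical value of 0.71. Of 26 such checks 6 passed, and WT tumor 2 was the low library in all 6. That library was also lowest for 36.5% of all tested genes. The members were chosen with earlier results of these data known, so no rate expected by chance applies to this count. Among the 5 tumors the share of the range was 0.896 for Lyve1, 0.722 for Oit3 and 0.949 for the difference between sinusoidal and general endothelial genes. Among the 5 wild-type libraries it was 0.722 for Oit3, 0.886 for the difference between sinusoidal and general genes, and 0.717 for Kdr minus Cdh5. The checks share genes and libraries, so they are not independent.

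In Stab1, Stab2, Lyve1, Oit3, Pecam1, Kdr and Cdh5, as in Plvap, both KO tumors lay above KO normal 3. That order rests on the single KO normal liver, and the share of all genes with it was not computed. WT tumors and WT normal livers did not overlap for 14.9% of all tested genes. For Plvap the tumor effect ran in opposite directions in the genotypes: both KO tumors lay above KO normal 3, and all 3 WT tumors lay below both WT normal livers. The difference of the effects was 1.292 on the log2 scale, and its edgeR adjusted p was 0.9999, so it did not pass.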

How the results depend on the processing

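Over 21 alternatives 486 values of single members were recomputed. Of these 465 kept their direction, 21 had the opposite sign, and 0 were called. DESeq2 called 5 genes for tumor over normal, 45 for KO over WT, 4 for KO over WT tumors and 13 for WT tumor over WT normal, where edgeR called 0. Leaving out 1 library at a time gave 0 to 2 edgeR calls for KO over WT. For tumor over normal, Stab2 then ran from -0.90 to 0.037 and Plvap from -0.42 to 0.15 on the log2 scale. Kdr ran from -0.88 to 0.064 and Lyve1 from -0.093 to 0.49 for KO over WT, and Plvap from -0.13 to 0.51 for KO over WT tumors. For WT tumor over WT normal, Lyve1 ran from -0.63 to 0.15 and Pecam1 from -0.46 to 0.14. Without both WT libraries of number 2, a choice made after seeing the data, tumor over normal was 0.020 for Fcgr2b, 0.053 for Stab2 and 0.22 for Plvap, and WT tumor over WT normal was 0.54 for Lyve1 and 0.14 for Pecam1. Without the libraries KO tumor 2 and KO normal 3, also chosen after seeing the data, Plvap was -0.12 for KO over WT tumors. Plvap was 0.011 for tumor over normal with limma-voom. With limma-voom the median of the sinusoidal genes was -0.64 for tumor over normal, -1.15 for WT tumor over WT normal, 0.65 for KO over WT tumors and 1.43 for the difference of tumor effects, larger than with edgeR in each. For KO over WT it was 0.17 with limma-voom and 0.12 and 0.078 on log2 FPKM with pseudocounts of 0.1 and 1. The causes were not tested.

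With the label number as a replicate block, Plvap was 0.0087 for tumor over normal. Sinusoidal minus general genes gave 1.10 for the tumor effect in KO minus that in WT, against 0.27 without it. The deviations of same-numbered libraries correlated at 0.14 and 0.18 in the 2 pairs that could be computed. Deviations of 2 normal livers from their mean mirror each other, so the unmatched pairs necessarily gave -0.14 and -0.18. This check therefore cannot decide on pairing. The numbers were not treated as pairs because the labels do not say that equal numbers came from 1 animal. The block changed no call. The KO normal group of 1 library and the outlying WT tumor 2 limit every group comparison here.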
